A study of Arabidopsis thaliana with 30 samples.

Results

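The genes described here are the 32 nuclear genes of Arabidopsis thaliana that were expressed in the accession C24 and silent in the accession Ler (Landsberg erecta). They were chosen by the deposited counts alone, as genes with a mean of at least 2 CPM (the count scaled by the library's column sum) in C24 and under 0.25 CPM in Ler. The 32 members stand among 33498 counted genes, 33230 of them nuclear, of which 20371 reached 2 CPM in C24. The stretch AT2G14290 to AT2G15140 on chromosome 2, with 118 counted genes, was left out beforehand, and none of its genes would have met the rule.

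The aerial parts of untreated seedlings aged 15 days gave the RNA that was sequenced. Seeds were first stratified for 3 days (4 °C), and each growth day had a light phase of 16 h (22 °C) and a dark phase of 8 h (18 °C). The 10 lines, with 3 libraries each, were 6 F6 lines, the reciprocal F1 hybrids LerXC24 and C24XLer, and the parents C24 and Ler. The F6 lines descend from C24/Ler hybrids by recurrent selection, and comprise the Hybrid Mimics HM-W, HM-S, HM-G plus the lines Med-E, Med-F, Sml-D, each with siblings 1, 2 and 3. The parents and hybrids have replicates A, B and C, and the labels do not say whether a library came from 1 plant or a pool, so that p-values cover no more than the spread among the libraries at hand.

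A gene that is active in 1 accession and silent in another can differ in its sequence, in its presence or in chromatin marks such as DNA methylation, which in plants keeps many transposable elements silent. An F1 seedling carries a genome copy from each parent, and repeated selfing after a cross leaves most loci with copies from 1 parent only. Such genes therefore serve as markers that can be followed through a pedigree. The reads were counted on a reference that is neither C24 nor Ler, so a transcript missing in Ler and Ler reads that do not match the reference cannot be told apart here. In bulk aerial tissue, fewer cells expressing a gene and less RNA per cell cannot be told apart either.

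Libraries had 41600826 to 53397900 reads, and their gene counts summed to 46822397 to 60757656, so that 3 counts, the limit that a count of 0 allows, correspond to 0.0494 to 0.0641 CPM. Intervals and floors cover counting error only. The share of reads aligned to several loci was 0.139% in C24 replicate C and 1.37% to 4.66% in the other libraries. All 5 leaf markers were detected in every line, and their summed level was 38585 to 41830.4 CPM in C24 and 34061 to 39035 CPM in Ler. The 8 root markers summed to 203 to 253 CPM in C24 and 58.0 to 88.1 CPM in Ler, and the 5 floral markers to 8.06 to 8.56 CPM in C24 and 16.4 to 27.4 CPM in Ler, with none at 0. The part of these markers in the results below was not tested.

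The members' C24 means ran from 2.09 to 46.0 CPM with a median of 4.74, and their Ler means from 0 to 0.212 CPM with a median of 0.0634. These values chose the members and are a description. In all 32, the highest Ler library lay below the lowest C24 library, and 5 members had 0 counts in every Ler library: SADHU2-1, AT1G43387, AT4G07810, AT4G07874 and AT5G34871. Summed over the members, the level was 302 to 329 CPM in the C24 libraries and 2.23 to 2.55 CPM in the Ler libraries. Just inside the C24 threshold were AT4G07810 at 2.09 CPM and AT5G34871 at 2.14 CPM, and just outside were AT4G12917 at 1.91 CPM and AT2G05645 at 1.87 CPM. Just inside the Ler threshold were AT2G14285 at 0.212 CPM and AT5G26345 at 0.192 CPM, and just outside were AT4G05475 at 0.262 CPM and AT5G28165 at 0.264 CPM.

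By the words of their annotation, 19 of 32 members (59.4%) were classed as a pseudogene or transposable element. That class held 14.7% of all nuclear genes and 2.84% of those at 2 CPM or more in C24. The origin of these members was not tested. The other members were 5 unknown proteins, 2 non-coding RNAs and 6 with an annotated product. These 6 are AGL38, the leucine-rich repeat protein AT3G43740, the Sm-type small nuclear ribonucleoprotein AT2G14285, the ferritin-like protein AT3G61010, the TRAF-like protein AT5G26290 and AT5G28350. Leucine-rich repeats are a protein-binding fold found in many plant receptors, and Sm proteins form the core of the particles that splice messenger RNA.

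The surroundings of the members were also rich in annotated pseudogenes. Within 250 kb of a member, the median share of annotated pseudogenes among counted genes was 47.7%, with a range of 0.690% to 85.7%. The median was 3.47% around the other genes at 2 CPM or more in C24. The nearest other expressed genes on either side did not share the difference between the parents as a rule. Members were passed over in this search, so an adjacent gene that itself met the rule could not count as a neighbour. The 64 sides of the members held 55 different neighbours. Of these 55 genes, 43 had a C24 to Ler ratio of 0.5 to 2, 6 were above 4 and 2 were below 0.25, and the median was 1.02. Chromosomes 1 to 5 held 8, 6, 6, 5 and 7 members.

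Of the 3 members that carry a symbol, 2 belong to the Sadhu family, non-coding retrotransposons of plants. For SADHU3-2 (AT3G42658) the annotation records an allele that is methylated and silenced in some natural accessions. SADHU2-1 (AT1G35112) had 5.09, 5.29 and 6.43 CPM in C24, against 0 in all 3 Ler libraries, and SADHU3-2 had 9.82, 10.1 and 7.87 CPM in C24, against 0.0796, 0 and 0 CPM in Ler. Their start regions, from 250 bases before to 50 bases after the annotated start, are shown because both elements were on in C24 and silent in Ler. They were read from the TAIR10.1 genome (RefSeq), SADHU2-1 from chr1:12841069-12841368 and SADHU3-2 from chr3:14750245-14750544, both on the minus strand and written 5′ to 3′. Capitals mark the 16-base run that both windows hold near the start.
SADHU2-1: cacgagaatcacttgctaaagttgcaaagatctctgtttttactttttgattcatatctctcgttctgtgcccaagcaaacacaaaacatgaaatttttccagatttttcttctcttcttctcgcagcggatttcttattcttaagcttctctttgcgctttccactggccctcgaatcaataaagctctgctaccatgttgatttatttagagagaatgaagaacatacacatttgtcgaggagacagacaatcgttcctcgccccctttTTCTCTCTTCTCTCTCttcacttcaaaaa
SADHU3-2: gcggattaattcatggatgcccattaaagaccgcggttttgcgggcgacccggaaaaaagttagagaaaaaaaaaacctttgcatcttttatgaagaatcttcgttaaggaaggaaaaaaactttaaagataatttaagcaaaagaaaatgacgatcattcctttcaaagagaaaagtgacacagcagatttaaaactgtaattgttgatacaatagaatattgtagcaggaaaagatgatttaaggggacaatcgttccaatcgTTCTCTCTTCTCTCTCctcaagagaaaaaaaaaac
The shared run occurred in 11 of 32742 such windows of counted genes (0.0336%). Over 340 aligned bases of the annotated elements, the pair was 67.9% identical. A match of letters is a description and says nothing on what reads them.

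AGL38 (AT1G65300, also called PHERES2) is a MADS-box transcription factor, and the annotation names it a target of the FIS Polycomb complex expressed in endosperm. It had 15.3, 18.4 and 14.7 CPM in C24 seedlings, against 0.278, 0.112 and 0.115 CPM in Ler seedlings. The groups did not overlap. Its homologue PHERES1 averaged 5.67 ± 2.89 CPM in C24 and 1.82 ± 0.296 CPM in Ler (SD, n = 3 each).

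**Figure D1:**
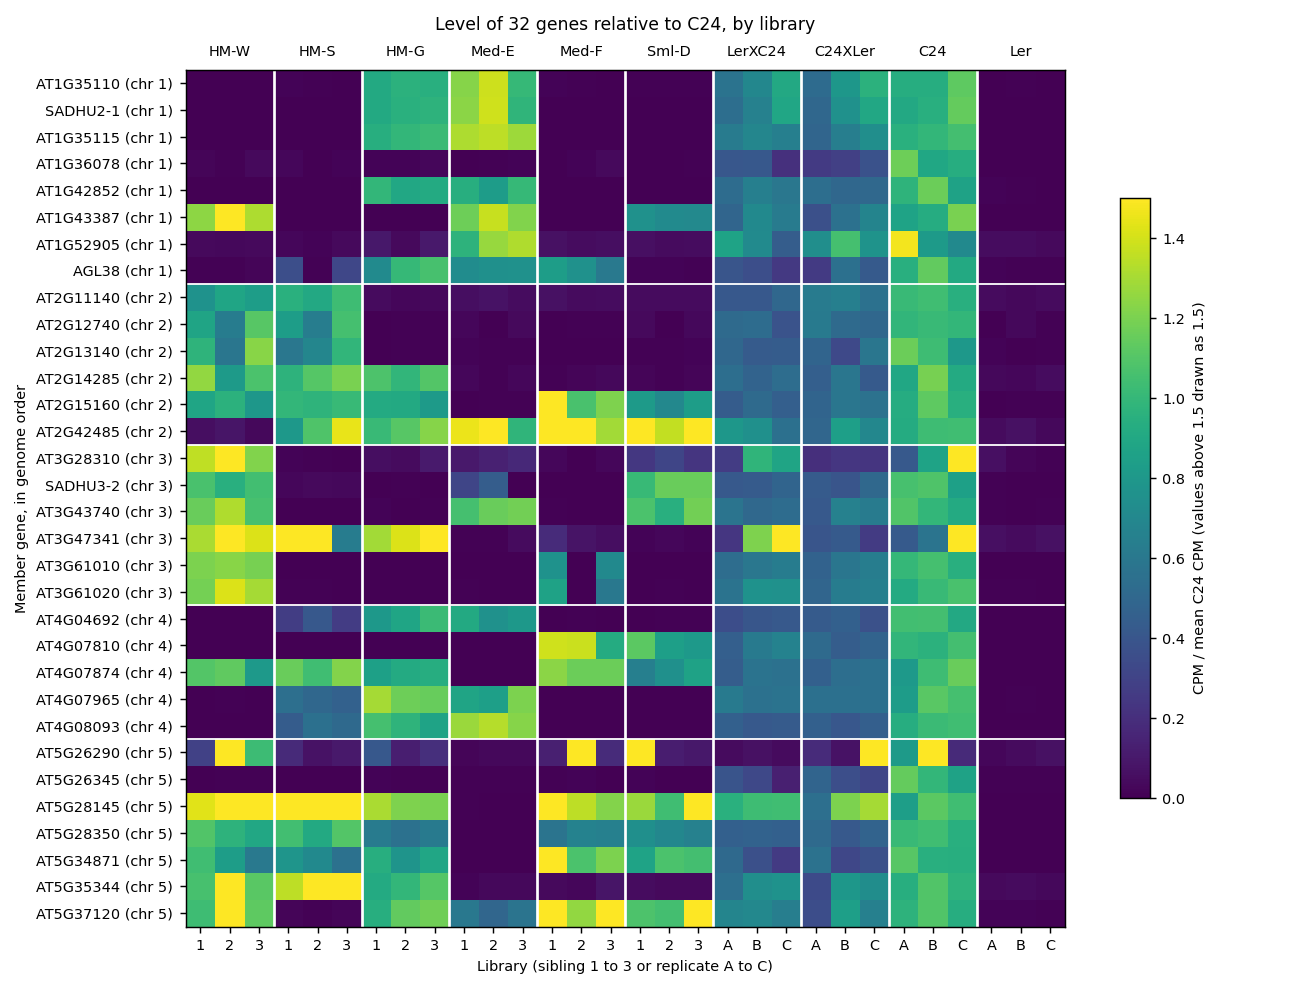
Level of each of the 32 members (rows, genome order) in each of the 30 libraries (columns, by line, sibling or replicate) as CPM divided by the C24 mean of that gene, with values above 1.5 drawn as 1.5. Ler columns are dark throughout, F1 columns are intermediate, and each F6 line shows its own set of bright and dark rows.

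To follow the members, the mean CPM of a line was divided by the C24 mean, which the rule had used, so ratios to C24 are given with no test, and a gene was called on at a ratio of 0.25 or more, off under 0.1 and undecided between. Of the 32 members, 31 were on in LerXC24, where 99.9% of all genes at 2 CPM or more in C24 were on, and 31 in C24XLer (100% of those genes). Both hybrids had 30 on. The mean of both crosses stood at a median of 0.541 of the C24 level, with a range of 0.324 to 1.01, and 26 of 32 members lay at 0.4 to 0.75. The other genes at 2 CPM or more in C24 had a median ratio of 1.03. The opposite set, 20 genes on in Ler and silent in C24 by the same thresholds, had a median F1 to Ler ratio of 0.518. The stretch AT2G14290 to AT2G15140 was left out of this set too. There the exclusion had an effect, since AT2G14460 of that stretch had 0 CPM in C24 and 8.14 CPM in Ler.

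Among members of at least 5 CPM in C24, the lowest F1 ratios were those of AT5G26345 (0.335), AGL38 (0.373) and AT4G04692 (0.407). The highest were those of SADHU2-1 (0.709), AT3G61020 (0.644) and AT1G35115 (0.639). AT5G28350, a protein whose annotation names a quinoprotein amine dehydrogenase fold, had 16.3, 16.7 and 16.3 CPM in LerXC24 and 18.3, 14.8 and 16.9 CPM in C24XLer, against 36.0, 36.8 and 33.4 CPM in C24 and 0.199, 0.131 and 0.0960 CPM in Ler. All hybrid libraries lay between the parents' libraries, without overlap. Its F1 ratio was 0.468. A counted gene, AT3G61480, is 97.3% identical to AT5G28350 over 99.7% of its length and had 164 CPM in C24 and 157 CPM in Ler, so reads shared with that copy make the level of AT5G28350 uncertain.

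AT5G28145, a pseudogene, was the member with the highest F1 ratio. It had 3.44, 3.74 and 3.76 CPM in LerXC24 and 1.98, 4.34 and 4.70 CPM in C24XLer, against 3.03, 4.05 and 3.77 CPM in C24 and 0.0199, 0 and 0 CPM in Ler. The hybrid libraries overlapped those of C24, and the ratio was 1.01.

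**Figure D2:**
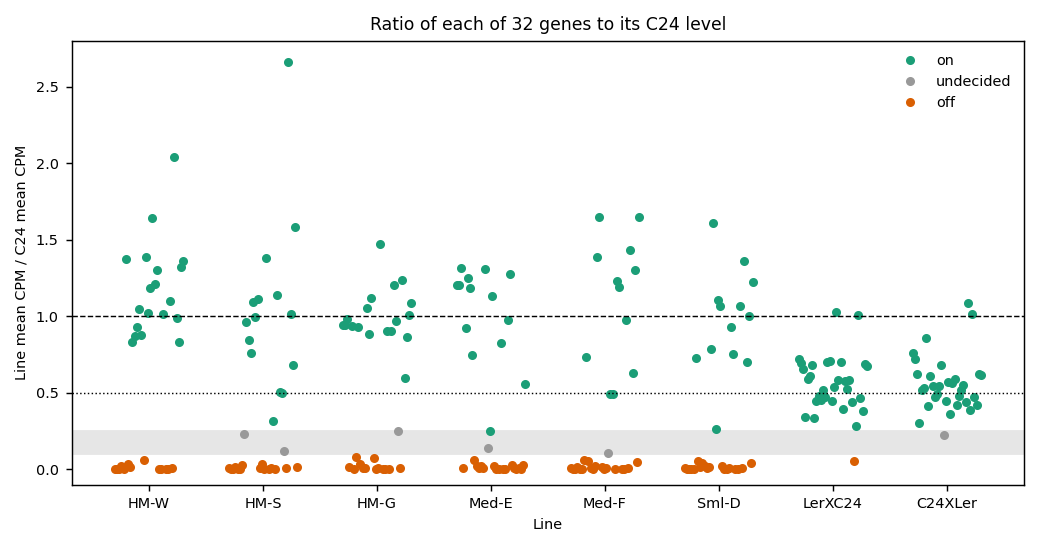
Ratio of each member's line mean to its C24 mean (y axis) in the 6 F6 lines and the 2 reciprocal hybrids (x axis), 1 point per gene. The dashed line marks the C24 level, the dotted line 0.5, and the grey band the undecided range from 0.1 to 0.25. Most hybrid points lie at 0.4 to 0.75. Most F6 points lie near 0 or around 1, while 15 of the 91 points that were on lie under 0.75 and 5 were undecided.

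1 member was called between the directions of the cross, too few to set apart from the share among all genes tested. Between LerXC24 and C24XLer, edgeR's quasi-likelihood test called it alone among 32 members at a Benjamini-Hochberg adjusted p under 0.05, beside 4.91% of the 29268 genes tested (2.57% higher and 2.34% lower in LerXC24). With no adjustment, 4 of the 32 members had p under 0.05, beside 5640 of the 29268 genes tested. The members' median log2 difference was 0.04, and that of all genes tested was 0.01.

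The called member was AT3G28310, which encodes a protein with a DUF677 domain of unknown function. It had 0.665, 2.46 and 2.19 CPM in LerXC24, against 0.5, 0.589 and 0.583 CPM in C24XLer, and every LerXC24 library lay above every C24XLer library. The difference was 1.70 ± 0.45 (log2, SE; edgeR, adjusted p = 0.0309). The call was lost in 7 alternatives, among them leaving out any C24XLer library (adjusted p = 0.0548 to 0.106), LerXC24 replicate B (adjusted p = 0.148) or LerXC24 replicate C (adjusted p = 0.219). The parent's own libraries varied for this gene, with 1.05, 2.17 and 4.27 CPM in C24, against 0.159, 0.0561 and 0.0192 CPM in Ler. The neighbour AT3G28320 had 3.87, 11.5 and 10.3 CPM in LerXC24 and 4.31, 2.95 and 3.76 CPM in C24XLer, so the hybrids overlapped. The neighbour on the other side, AT3G28270, went the opposite way. It had 79.3, 42.7 and 28.0 CPM in LerXC24, against 304, 205 and 84.9 CPM in C24XLer, without overlap. Both neighbours were chosen after their values were seen.

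AT5G26290, whose product carries the TRAF-like fold of adaptor proteins, behaved as a gene of single libraries. It had 0.152, 0.217 and 0.150 CPM in LerXC24, against 0.597, 0.236 and 9.85 CPM in C24XLer, and 1 C24XLer library stood far above the rest. The difference was -4.25 ± 1.49 (log2, SE; edgeR, adjusted p = 0.1) and, without C24XLer replicate C, -1.29 (adjusted p = 0.760). DESeq2 called it (adjusted p = 0.0119). Its C24 libraries also spread widely, with 2.67, 6.58 and 0.583 CPM, against 0.0796, 0.150 and 0.230 CPM in Ler.

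In the F6 lines the members separated into on and off. HM-W had 19 members on (99.5% of all genes at 2 CPM or more in C24), HM-S 15 (99.5%), HM-G 18 (99.5%), Med-E 14 (99.4%), Med-F 12 (99.5%) and Sml-D 13 (99.5%). The counts off were 13 (HM-W), 15 (HM-S), 13 (HM-G), 17 (Med-E), 19 (Med-F) and 19 (Sml-D), and the other 5 pairs of gene and line were undecided. Where a member was on in an F6 line, its median level was 1.02 of C24 over 91 such pairs, with a range of 0.251 to 2.66, against the F1 median of 0.541. Of the 20 genes of the opposite set, 6 were on in HM-G and 12 in Med-F, with 9 to 11 in the other F6 lines and Ler as the scale.

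Each F6 line was also compared with the mean of both F1 hybrids in the fit over all genes, which used the same F6 libraries as the on and off states. HM-W had 15 members higher and 13 lower (4.38% and 6.55% of the 29268 genes tested, 10.9% in either direction), HM-S 10 and 15 (5% and 6.6%, 11.6% in either), HM-G 15 and 13 (8.26% and 8.86%, 17.1% in either), Med-E 11 and 17 (13.6% and 15%, 28.6% in either), Med-F 7 and 20 (14.3% and 13.3%, 27.6% in either), and Sml-D 9 and 19 (13.7% and 14.9%, 28.7% in either), by edgeR at an adjusted p under 0.05. All 32 members were tested, and these 6 comparisons share the F1 libraries. The 5 floral markers summed to 12.5 to 15.4 CPM in HM-W, 13.1 to 15.4 CPM in HM-S, 9.28 to 9.55 CPM in HM-G, 11.5 to 15.0 CPM in Med-E, 21.7 to 30.7 CPM in Med-F and 30.1 to 42.7 CPM in Sml-D, against 9.02 to 10.3 CPM in LerXC24 and 9.14 to 11.6 CPM in C24XLer. The 8 root markers summed to 73.6 to 228 CPM in the F6 libraries, against 74.6 to 208 CPM in the hybrids. Their part in these counts was not tested.

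The members took 16 patterns over the 6 F6 lines. None was on in all 6, and 2 were off in all 6. These were AT5G26345, a pseudogene, and AT1G36078, an unknown protein, both on in the hybrids. AT5G26345 had 8.70, 7.35 and 3.01 CPM in LerXC24 and 10.9, 8.13 and 7.07 CPM in C24XLer, against 25.7, 22.3 and 19.4 CPM in C24, and averaged 0.110 to 0.211 CPM in the F6 lines and 0.192 CPM in Ler. AT1G36078 averaged 0.0188 to 0.0926 CPM in the F6 lines, 1.41 ± 0.483 CPM in LerXC24 and 1.25 ± 0.273 CPM in C24XLer, against 4.10 ± 0.615 CPM in C24 (SD, n = 3 each). These 2 genes also had the lowest F1 ratios of all members, 0.335 and 0.324.

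The most frequent pattern was off in Med-E and on in the other 5 lines, shown by AT2G15160, AT4G07874, AT5G28145, AT5G28350 and AT5G34871. AT2G15160 and AT4G07874 are 92.5% identical over 62.0% of AT2G15160. AT5G34871 has a counted copy, AT3G42806, that is 95.6% identical over 98.4% of its length. In all, 7 members have a counted copy at least 95% identical over at least 50% of their length, and shared reads make their levels uncertain. AT4G07874 and AT5G34871 had 0 counts in all 3 Med-E siblings, which by the limit of 3 counts allows up to 0.0594 to 0.0636 CPM per sibling. AT5G28350 had 0.170, 0.202 and 0.178 CPM in Med-E, against 16.4 CPM in LerXC24 and 16.7 CPM in C24XLer on average, a difference from the F1 of -6.51 ± 0.15 (log2, SE; edgeR, adjusted p = 3.15e-20). AT2G15160, a pseudogene, had 0.0212, 0.101 and 0.0990 CPM in Med-E, against 4.71, 5.55 and 4.90 CPM in LerXC24. Every Med-E sibling lay below every hybrid library for both genes. AT1G52905, an unknown protein, was the reverse case, on in Med-E alone, with 3.24, 4.25 and 4.43 CPM there and line means of 0.0890 to 0.264 CPM in the other F6 lines.

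Some neighbouring members shared their pattern, but most did not. In genome order, 27 pairs of members were adjacent on a chromosome, and 9 had the same state in all 6 F6 lines. Of the 5 pairs within 100 kb, 3 did. There were 6 runs of 2 or more members with 1 pattern, which held 15 members.

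On chromosome 1, AT1G35110, SADHU2-1 and AT1G35115 (positions 12833398 to 12845455, TAIR10) were on in HM-G and Med-E only. AT1G35115 had 23.9, 25.1 and 25.9 CPM in HM-G and 33.4, 34.3 and 32.5 CPM in Med-E, and at most 0.0375 CPM in any sibling of the other 4 lines. SADHU2-1 had 5.10, 5.32 and 5.42 CPM in HM-G and 6.93, 7.79 and 5.50 CPM in Med-E, and 0 counts in all 12 siblings of the other F6 lines. AT1G35110 and SADHU2-1 overlap on the same strand, so their counts are not separate.

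On chromosome 2, AT2G11140, AT2G12740 and AT2G13140, all pseudogenes, formed a run from 4416608 to 5425079 and were on in HM-W and HM-S only. AT2G13140 had 10.4, 6.24 and 13.1 CPM in HM-W and 6.33, 7.30 and 10.5 CPM in HM-S, against at most 0.154 CPM in any sibling of the other lines. The third run of 3 members reached from AT5G28145 to AT5G34871 on chromosome 5, from 10129022 to 13086565. It held the pattern of Med-E given above.

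On chromosome 3, SADHU3-2 and AT3G43740 (14749400 to 15645688) were on in HM-W, Med-E and Sml-D. AT3G43740 had 8.73, 9.95 and 8.02 CPM in HM-W, 7.97, 8.70 and 8.89 CPM in Med-E and 8.09, 7.12 and 8.89 CPM in Sml-D, against at most 0.102 CPM in any sibling of the other 3 lines. The siblings that were on had 7.12 to 9.95 CPM, overlapping the C24 range of 6.89 to 8.25 CPM.

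On chromosome 4, the pattern changed over short distances. AT4G07810 was on in Med-F and Sml-D, AT4G07874 at a distance of 63.7 kb was on in all F6 lines but Med-E, and AT4G07965 a further 109 kb away was on in HM-S, in HM-G and in Med-E, as was AT4G08093. AT4G07810 had 0 counts in all 12 siblings of the Hybrid Mimics and Med-E, against 2.91, 2.88 and 1.92 CPM in Med-F and 2.35, 1.76 and 1.70 CPM in Sml-D. AT4G07874 has a counted copy, AT4G07843, that is 98.1% identical over 96.3% of its length.

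**Figure D3:**
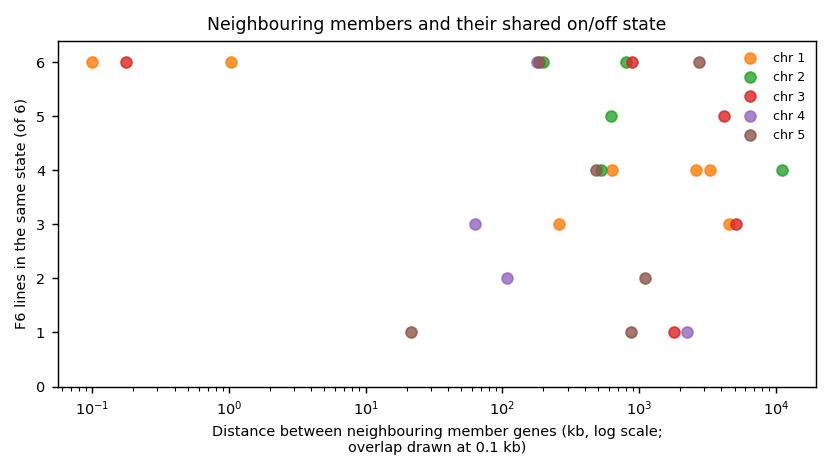
Number of F6 lines, of 6, in which neighbouring members had the same state (y axis), by the distance between them in kb (x axis, log scale, with an overlapping pair drawn at 0.1 kb), coloured by chromosome, for 27 pairs. Pairs with all 6 lines alike occur both under 2 kb and above 1000 kb, and the 5 pairs within 100 kb include 2 with fewer than 4 lines alike.

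Genes of the opposite set lay near many members. Within 1 Mb, 20 members had such a gene, in 25 pairs. Over the 6 F6 lines these gave 150 comparisons, of which 115 showed 1 gene on and the other off, 10 both on and 16 both off. The rest had at least 1 undecided gene. No such share was computed for genes farther apart. The pairs share genes and siblings, so they are not independent.

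Among the 192 pairs of member and F6 line, 85 had all 3 siblings on, 94 had all 3 off and 5 had siblings in both states. The other 8 had at least 1 undecided sibling. The 5 genes with siblings in both states lay in 4 lines.

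AT3G61010 and its neighbour AT3G61020, a pseudogene of TRICHOME BIREFRINGENCE-LIKE 32, lie 176 bases apart on opposite strands and differed together in Med-F. AT3G61010 had 35.2, 0.172 and 32.8 CPM in Med-F siblings 1, 2 and 3, against 46.0, 48.6 and 43.4 CPM in C24 and 0.139, 0.168 and 0.115 CPM in Ler. Sibling 2 had 9 counts (95% exact Poisson interval 4.12 to 17.1) and siblings 1 and 3 had 1708 and 1551. AT3G61020 had 8.36, 0.0191 and 5.79 CPM in the same siblings, the sibling 2 value being 1 count. Sibling 2 thus lay near the Ler level for both genes. In HM-W all 3 siblings had 54.8 to 56.6 CPM of AT3G61010, above every C24 library.

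AGL38 had 5.82, 0.150 and 5.17 CPM in HM-S siblings 1, 2 and 3, against 6.38, 5.82 and 4.05 CPM in LerXC24, 4.08, 8.92 and 6.90 CPM in C24XLer, and 15.3, 18.4 and 14.7 CPM in C24. HM-S siblings 1 and 3 were in the range of the hybrids, and sibling 2, with 8 counts (95% exact Poisson interval 3.45 to 15.8), was in the range of Ler. Elsewhere AGL38 was on in HM-G, Med-E and Med-F and off in HM-W and Sml-D in every sibling.

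SADHU3-2 had 2.90, 4.07 and 0 CPM in Med-E siblings 1, 2 and 3, against 3.89, 3.98 and 4.46 CPM in LerXC24 and 9.82, 10.1 and 7.87 CPM in C24. Sibling 3 had 0 counts (95% exact Poisson interval 0 to 3.69 counts, or up to 0.0730 CPM). This limit is wider than the 3 counts used above for a count of 0. The other member of its run, AT3G43740, was on in that sibling at 8.89 CPM. In HM-W and Sml-D, SADHU3-2 had 8.78 to 10.7 CPM in all siblings. The Med-E mean of SADHU3-2 was 0.251 of C24, just above the threshold of 0.25, so its state in Med-E and the run with AT3G43740 rest on that threshold. Med-E had 13 members on instead of 14 with on set at 0.5 of C24, with TMM-scaled CPM, or without sibling 1 or sibling 2.

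AT5G26290 had 9.77, 0.403 and 0.309 CPM in Sml-D siblings 1, 2 and 3. In Med-F it had 0.433, 8.55 and 0.613 CPM, and in HM-W 0.955, 6.49 and 3.38 CPM. Since its C24 libraries spread from 0.583 to 6.58 CPM, this gene also varied among replicates of a parent. The other 4 genes were on in all 3 C24 libraries.

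**Figure D4:**
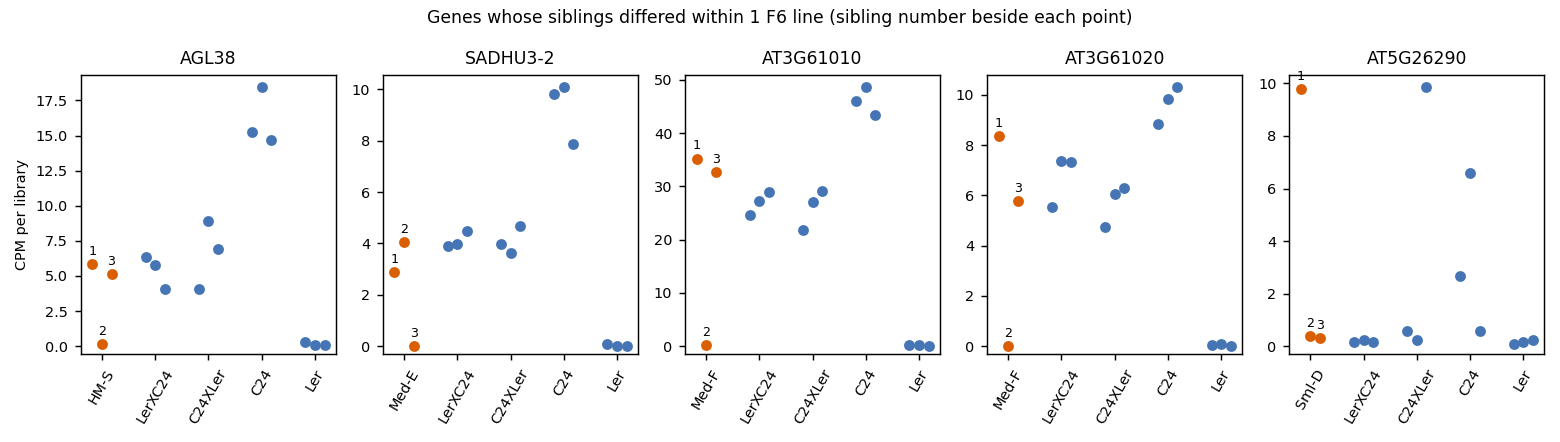
CPM per library (y axis, 1 point each) of the 5 genes with siblings in both states, in the F6 line concerned (orange, sibling number beside each point), LerXC24, C24XLer, C24 and Ler (blue). The low siblings of AT3G61010, AT3G61020, AGL38 and SADHU3-2 lie below all hybrid libraries, the high siblings of AGL38 lie in the hybrid range, and the hybrid and C24 libraries of AT5G26290 spread widely.

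Some members were on at an intermediate level in all 3 siblings of a line. In HM-S this held for 3 members of chromosome 4: AT4G04692, AT4G07965 and AT4G08093. AT4G07965 had 8.52, 7.81 and 7.26 CPM in HM-S, against 9.65, 8.69 and 8.94 CPM in LerXC24, 8.66, 8.62 and 8.65 CPM in C24XLer and 13.0, 17.4 and 16.5 CPM in C24. Its HM-S siblings lay below every C24 and every hybrid library, but no difference from the F1 was called. That difference was -0.24 ± 0.18 (log2, SE; edgeR, adjusted p = 0.446). In HM-G and Med-E, where the gene was also on, it had 18.0 to 20.2 CPM and 13.2 to 18.8 CPM. AT4G08093, a pseudogene, had 3.69, 4.73 and 4.35 CPM in HM-S, against 3.93, 3.54 and 3.68 CPM in LerXC24, and differed from the F1 by 0.13 ± 0.12 (log2, SE; edgeR, adjusted p = 0.547).

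AT4G04692, a pseudogene, was the lowest of the 3 relative to C24, at 0.318 of the C24 mean, with 7.56, 11.4 and 7.31 CPM in HM-S, against 28.8, 28.9 and 24.9 CPM in C24. AT5G28350 had an intermediate level in HM-G, Med-F and Sml-D, at 0.599, 0.630 and 0.698 of C24, against 0.988 in HM-W and 1.02 in HM-S. It nevertheless exceeded the F1 in these 3 lines, by 0.41 ± 0.08 in HM-G, 0.32 ± 0.08 in Med-F and 0.53 ± 0.08 in Sml-D (log2, SE; edgeR, adjusted p = 0.00155, 0.00595 and 5.25e-05). The call in Med-F was lost when only the lines compared were fitted (adjusted p = 0.0502). In Med-E, AT5G37120 stood at 0.558 of its C24 level.

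Between the Hybrid Mimic lines and the other F6 lines, with siblings summed and the line as the replicate (3 against 3), 3 of the 26 members that could be tested were higher and none lower. Of the 29951 genes tested, 1.48% were called, 0.805% higher and 0.678% lower. The 6 members not tested (AT1G35110, SADHU2-1, AT1G35115, AT1G42852, AT3G61020 and AT4G07810) did not pass the filter on low counts. Each was on in 2 of the 6 F6 lines and off in the others, and the level where on could be high. AT1G35115, for example, averaged 33.4 CPM in Med-E. The set of 26 therefore depends in part on the F6 states, although other members on in 2 lines, such as AT2G11140, were tested. The 3 called members were AT2G14285, AT5G35344 and AT3G47341. With no adjustment, 6 of the 26 members had p under 0.05, beside 5963 of the 29951 genes tested. The same 3 had every Hybrid Mimic sibling above every sibling of the other lines, as did 1.76% of the genes tested. The summed floral markers, given above by line, were highest in Med-F and Sml-D, and their part in these differences was not tested.

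AT2G14285, the Sm-type protein, had 7.64, 4.98 and 6.53 CPM in HM-W, 5.90, 6.72 and 7.29 CPM in HM-S and 6.59, 6.0 and 6.68 CPM in HM-G, against 0.0576 to 0.190 CPM in the 9 siblings of Med-E, Med-F and Sml-D. The groups did not overlap, and the high lines were at the C24 level of 5.42, 7.24 and 5.57 CPM. The difference was 5.89 ± 0.16 (log2, SE; edgeR, adjusted p = 2.0e-04). In genome order the gene directly precedes the stretch of chromosome 2 left out at the start, and AT2G15160, the next member, follows it.

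AT5G35344, a pseudogene on chromosome 5, had 3.26, 5.47 and 3.44 CPM in HM-W, 4.14, 5.57 and 4.89 CPM in HM-S and 2.83, 3.04 and 3.4 CPM in HM-G, against 0.0424 to 0.254 CPM in the 9 other siblings. The difference was 5.08 ± 0.26 (log2, SE; edgeR, adjusted p = 0.00136). The groups did not overlap. The start regions of AT2G14285 and AT5G35344 are shown since these members separated the Hybrid Mimics from the other F6 lines most clearly. They were read from TAIR10.1 (RefSeq) at chr2:6053945-6054244 on the minus strand and chr5:13568479-13568778 on the plus strand, 5′ to 3′, with capitals for TATAAA on either strand.
AT2G14285: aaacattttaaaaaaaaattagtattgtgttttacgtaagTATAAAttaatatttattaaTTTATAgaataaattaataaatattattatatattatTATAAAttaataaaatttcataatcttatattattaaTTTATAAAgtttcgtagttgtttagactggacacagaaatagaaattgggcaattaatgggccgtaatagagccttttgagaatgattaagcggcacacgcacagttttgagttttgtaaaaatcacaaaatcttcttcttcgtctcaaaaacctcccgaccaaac
AT5G35344: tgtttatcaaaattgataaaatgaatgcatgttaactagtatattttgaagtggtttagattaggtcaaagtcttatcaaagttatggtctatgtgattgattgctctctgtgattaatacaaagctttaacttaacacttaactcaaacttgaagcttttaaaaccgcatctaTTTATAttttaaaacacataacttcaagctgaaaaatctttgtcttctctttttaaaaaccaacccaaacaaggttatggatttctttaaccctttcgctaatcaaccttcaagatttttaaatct
TATAAA was found on either strand in 7 of the 32 members' windows (21.9%), against 50.1% of all 32742 windows of the same length. CACGTG, a G-box, was found in 4 (12.5%), against 6.91%. The members' windows had a median GC content of 34.8%, and all windows 32.7%.

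AT3G47341 had 2.94, 4.95 and 3.20 CPM in HM-W, 3.43, 4.48 and 1.42 CPM in HM-S and 2.91, 3.19 and 3.84 CPM in HM-G, against 0.0202 to 0.413 CPM in the other 9 siblings. The difference was 4.99 ± 0.58 (log2, SE; edgeR, adjusted p = 0.0207). The call was lost without HM-W (adjusted p = 0.0957), without HM-S (adjusted p = 0.0912) or without Sml-D (adjusted p = 0.0762). The gene overlaps ASN1 (AT3G47340) on the opposite strand, so its reads cannot be separated from that gene's without strand information. ASN1, glutamine-dependent asparagine synthetase, a gene known to respond to darkness and sugar, had line means of 424 CPM in HM-W, 331 CPM in HM-S and 514 CPM in HM-G, against 4.52 CPM in Med-E, 41.6 CPM in Med-F and 3.86 CPM in Sml-D. The part of ASN1 reads in the level of AT3G47341 was not tested.

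None of the other members tested was called. AT2G13140, AT2G12740 and AT2G11140, on in HM-W and HM-S but off in HM-G, had log2 differences of 6.22 ± 1.61, 5.01 ± 1.46 and 3.56 ± 1.03 (SE; edgeR, adjusted p = 0.117, 0.144 and 0.142). No member was off in all 3 Hybrid Mimics and on in the 3 other lines.

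**Figure D5:**
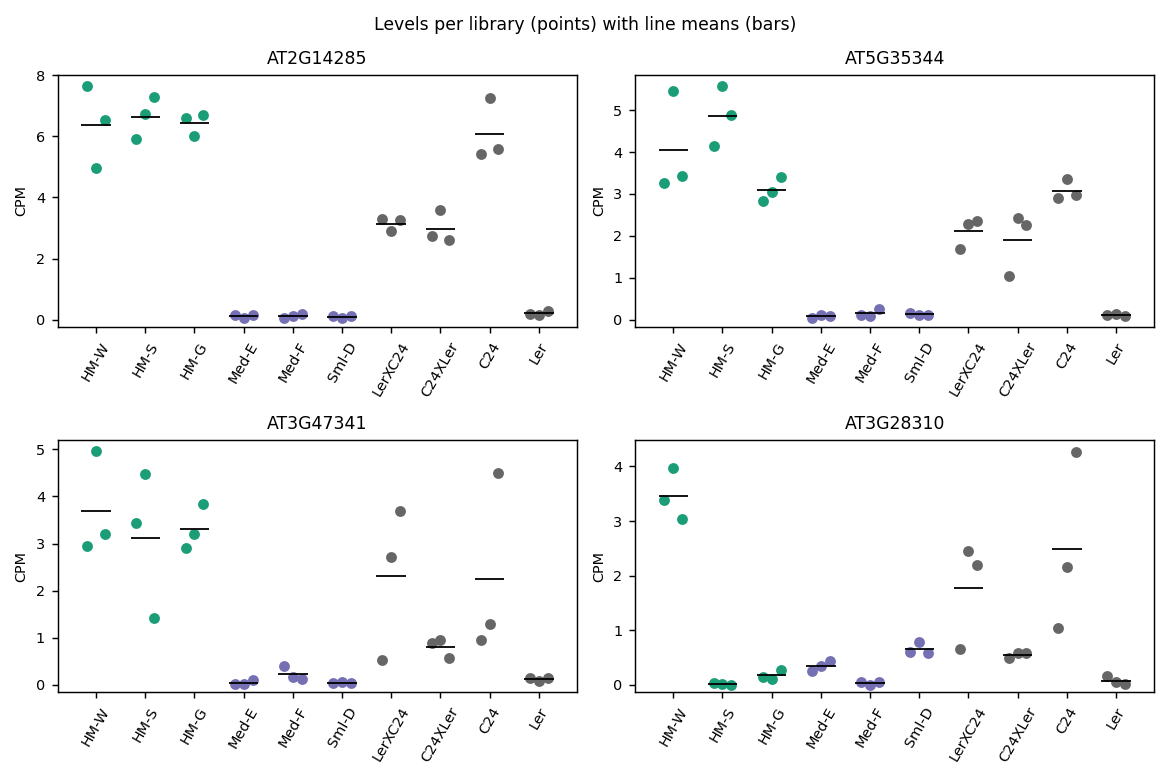
CPM per library (points) and line mean (bars) of the 3 members called between the Hybrid Mimic lines (green) and the other F6 lines (violet), and of AT3G28310, the member called between the reciprocal hybrids, with hybrids and parents in grey. For AT2G14285 and AT5G35344 all 9 green points lie above all violet points, and for AT3G28310 the C24 and LerXC24 libraries spread widely.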

How the data were processed

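The authors' deposited table gives 1 raw count per gene and library, not normalized, judging by its header and whole-number values, and a second deposited table gives counts of reads by class. The submitters' processing notes name FastQC, DESeq and build TAIR10. Aligner, counter and strand setting were not given in the sources used here. Members and lists were chosen with earlier results of these data known. CPM is the count over the column sum. Counts of all 30 libraries entered 1 quasi-likelihood fit (edgeR 4.0.16, limma 3.58.1, R 4.3.3; TMM, filterByExpr minimum count 10) with 1 coefficient per line, which tested 29268 of 33498 genes, and calls had a Benjamini-Hochberg adjusted p under 0.05. The Hybrid Mimic comparison summed the siblings of a line (29951 genes). DESeq2 1.42.0 was an alternative. Positions and names came from TAIR10.1 (RefSeq), whose nuclear chromosomes are those of TAIR10, and all 32 members had an entry. The fits were tested on simulated data. Members named are those of highest C24 level, of extreme F1 ratio, with split siblings, called, off in every F6 line, in the longest runs, with a symbol or next to a threshold; others named were chosen after their values were seen. No library pair in a group agreed within sampling noise.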

Additional observations from a re-analysis of the deposited data

Results flagged for a closer look

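AT2G14285 and AT5G35344 drew attention because the Hybrid Mimic lines and the other F6 lines moved in opposite directions from the F1 mean in every library. The test of the difference between the kinds of line gave 5.89 for AT2G14285 and 5.08 for AT5G35344 on the log2 scale, as reported above.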

How the results depend on the processing

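The number of members depended on the thresholds: 58 with a C24 minimum of 1 CPM, 15 with 5 CPM, 21 with a Ler maximum of 0.1 CPM, 51 with 0.5 CPM and, as an alternative added after the data were seen, 5 with 0 counts in all Ler libraries. Leaving out 1 library of a parent gave 31 to 35. With on set at 0.5 of C24, LerXC24 had 19 members on and C24XLer had 19, and with on at 0.5 and off under 0.05, 2 genes had split siblings instead of 5. The counts of members on in the F6 lines moved by less than 1.5 times in all alternatives run, including those without overlapping members, close copies or the 3 genes whose C24 libraries spread widely. Between the reciprocal hybrids, members called were 2 by DESeq2, 0 when the other lines were left out of the fit (3917 genes at an unadjusted p under 0.05, DESeq2 5539), and 0 to 2 when 1 library was left out; all genes called were 0 without the other lines and 0 to 2944 when 1 library was left out. The letters A to C did not pair the hybrids (correlations of deviations 0.00944, 0.0863 and -0.00027), and the replicate block gave 0 members and 245 genes. Between the kinds of F6 line, members called were 6 by DESeq2 and 2 to 6 when 1 line was left out; all genes called were 2945 by DESeq2 and 33 to 2373 when 1 line was left out. With the replicate block over unsummed siblings, 3 members and 8037 genes were called. Of 168 calls of a member in a comparison, 20 were lost under some alternative, and none changed sign. The causes were not tested. Members under about 0.06 CPM rest on 3 counts or fewer per library.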
